A study of Mus musculus with 8 samples.

Results

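The cytosolic ribosomal protein genes are the genes for the proteins of the large (Rpl, Rplp) and small (Rps, Rpsa) subunits of the ribosome that translates nuclear mRNAs. Members were the entries of the gene table whose symbol fits the Rpl or Rps naming, the P-stalk names Rplp0 to Rplp2 or Rpsa, with the S6 kinases left out. This gave 85 of 56576 entries, of which 45 carried large subunit names, 32 small subunit names and 8 the names of paralogs such as Rpl22l1. The naming rule also takes in Rps19bp1, which encodes a binding protein and not a ribosomal protein, and the copies or retrogenes Rps23rg1, Rpl37rt and Rpl32l. The 73 canonical members are those without these 4 and the paralogs. RNA bound to HA-tagged ribosomes was sequenced from synaptosomes of the cortex of mice at postnatal day 15. The 4 control libraries came from Lhx6-Cre;Erbb4+/+;Rpl22HA/HA mice and the 4 conditional mutant libraries from Lhx6-Cre;Erbb4F/F;Rpl22HA/HA mice. Lhx6-Cre acts in interneurons of the medial ganglionic eminence, so in both genotypes the Cre also switches on the tag, on the ribosomal protein Rpl22, in these cells. The comparison asks how ribosome-bound mRNAs at the synapse differ when the receptor ErbB4 is lost from the same cells.

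Each ribosome holds a single copy of nearly every ribosomal protein, so their mRNAs are made and translated in step. Most of these mRNAs begin with a 5′ terminal oligopyrimidine (TOP) tract, a run of C and T bases at the transcription start that puts their translation under the control of the kinase mTORC1. ErbB4 is a receptor tyrosine kinase, and receptors of this class act on mTORC1 through its inhibitor Tsc2. Ribosomal protein mRNAs are also found in axons and dendrites, where new proteins can join existing ribosomes.

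RefSeq start sites (GRCm38.p6) were matched by symbol for 65 of the 85 members, and the 30 bases around each start, 15 before and 15 after, were read on the transcribed strand. A run of at least 8 bases that were each C or T was found for 27 of the 65 members, 41.5%, against 13.9% of the 27025 genes of the RefSeq table and 9 of 69 mitochondrial ribosomal protein genes. The annotated start need not be the one used in these cells, so a window without a run does not speak to the TOP tract of that mRNA. The windows below are those of members that the comparison of genotypes turns on, with the longest run of C and T in capitals; the first 5 hold a run of at least 8 bases, and the last 3 do not.
Rps15a (chr7:118116133-118116162, minus strand): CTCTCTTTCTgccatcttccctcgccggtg
Rpl31 (chr1:39367836-39367865, plus strand): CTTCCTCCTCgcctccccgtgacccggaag
Rpl27a (chr7:109519180-109519209, plus strand): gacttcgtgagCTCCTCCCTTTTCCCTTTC
Rps6 (chr4:86857353-86857382, minus strand): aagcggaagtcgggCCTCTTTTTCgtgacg
Rplp2 (chr7:141447636-141447665, plus strand): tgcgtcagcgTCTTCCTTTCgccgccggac
Rpl36al (chr12:69184053-69184082, minus strand): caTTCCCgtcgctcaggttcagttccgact
Rps19bp1 (chr15:80264292-80264321, minus strand): cagggcggaagtagCTCgccgcgtgtgggc
Rpl22 (chr4:152324421-152324450, plus strand): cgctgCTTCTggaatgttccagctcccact

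Reads counted on genes ran from 51010687 to 80226984 per library, and the values below are these counts after normalization for depth by the authors. Erbb4 itself was at 1640, 5377, 4306 and 3034 normalized counts in control replicates 1, 3, 4 and 5, and at 1711, 1648, 1233 and 1048 in mutant replicates 2, 3, 4 and 5. Its log2 fold change in mutants was -1.25 (SE 0.34, limma p = 0.0041, exact permutation p = 0.086, two-sided as all p values here), and -1.58 without the library labelled control replicate 1. The library labelled control replicate 1 was below mutant replicates 2 and 3, so Erbb4 goes against its label, and the groups overlapped. Where the number of calls on a list changes without this library, the count without it is given.

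The ribosomal protein mRNAs varied more between the libraries labelled control than between the genotypes. They took 0.243% of the reads in the library labelled control replicate 1 and 0.182% in control replicate 3, but 0.103% in control replicate 4 and 0.129% in control replicate 5. In mutants the share was 0.136%, 0.140%, 0.113% and 0.117% in replicates 2, 3, 4 and 5. The widest 95% Wilson interval of these shares was 0.0013 percentage points to either side, which covers counting error only. Control replicates 1 and 3 were thus above all other libraries, and control replicate 4 was below all 4 mutants. The summed normalized counts of the 85 genes also stood highest in control replicates 1 and 3, with 174782, 149725, 68758 and 81394 in controls and 86616, 90924, 69591 and 68175 in mutants.

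The members moved together across libraries. Taken as the deviation of each member from its own mean log2 level over the 8 libraries, the median member was 1.08 higher in control replicate 1 and 0.87 higher in control replicate 3. In control replicates 4 and 5 the median deviation was -0.52 and -0.24, where the 4 mutants ran from -0.49 to -0.06. Of the 83 members with enough reads to test, 82 were above their own mean in control replicate 1 and 80 in control replicate 3, but 5 in control replicate 4 and 16 in control replicate 5. For 73 of the 83, or 88.0%, control replicates 1 and 3 were the 2 highest of the 8 libraries, which held for 14.0% of all genes tested. Members with another order included Rpl10, Rpl12, Rpl22, Rpl32l, Rpl3l, Rps6, Rps12, Rps15a and Rps28.

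**Figure D1:**
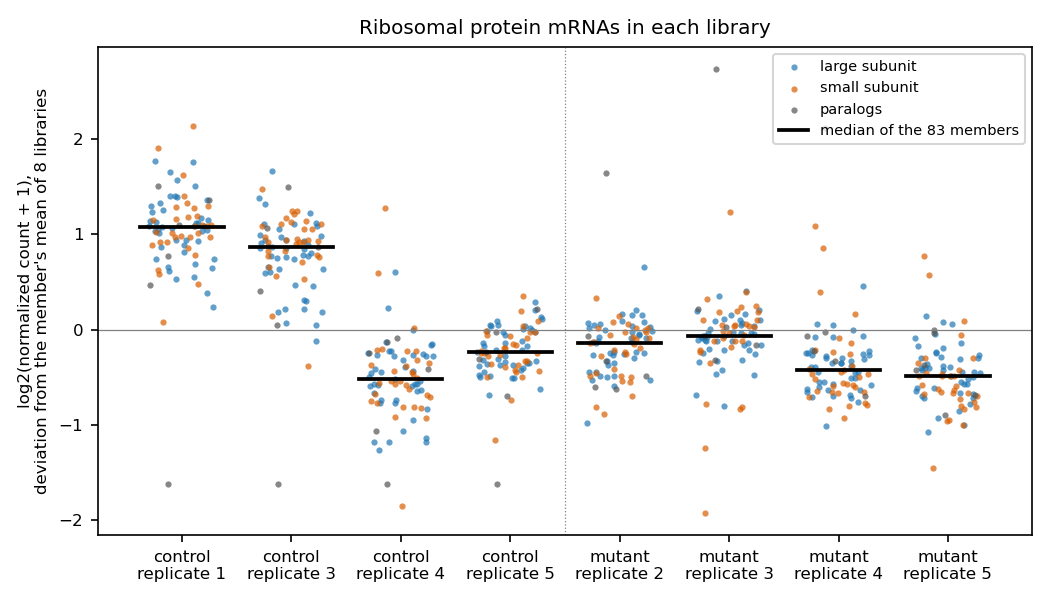
Each point is 1 of the 83 ribosomal protein genes tested, as its log2(normalized count + 1) in a library minus its own mean over the 8 libraries, coloured by subunit; the black line is the median of the members. Control replicates 1 and 3 stand at medians of 1.08 and 0.87, and the other 6 libraries lie between -0.52 and -0.06.

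Between genotypes, 7 of the 83 members tested were called, that is, had an unadjusted limma p no higher than 0.05 with a change of 1.5-fold or more; this is 8.43%, against 7.15% of the 31171 genes tested. Of these, 6 were lower in mutants (Rps15a, Rpl36al, Rpl31, Rps19bp1, Rpl27a and Rpl8), where 3.17% of all genes were lower, and Rpl3l was higher, where 3.98% of all genes were. Rpl3l had no read in controls and reached the minimum mean of 10 through the mutants alone, so it could only be tested by being higher, and its call carries no weight. Among genes with a mean of at least 10 in both genotypes, a limit added after the data were seen, 6 of 82 members were called (7.32%), all lower, against 6.72% of 28180 genes. After Benjamini-Hochberg adjustment over all genes, limma left 0 of the 83 at an adjusted p under 0.05, with a lowest value of 0.58, and edgeR and DESeq2 also left 0. Without adjustment 7 members had a limma p of at most 0.05, where 8.33% of all genes did, 18 an edgeR p (8.53% of all genes) and 25 a DESeq2 p (11.1%). With the threshold for the fold, edgeR called 18 members and 7.31% of all genes, and DESeq2 24 members and 9.09%. The share of members called in either direction was thus near that of all genes by limma and above it by edgeR and DESeq2.

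The direction was shared much more widely than the calls. The log2 fold change was below 0 in 78 of the 83 members and in 14534 of the 31171 genes tested. The median was -0.61 over the members and 0.06 over all genes, and from the 25th to the 75th percentile the members ran from -0.74 to -0.45 and all genes from -0.38 to 0.55. The typical standard error of a member was 0.41, the median over members, so most single members did not differ beyond the spread between replicates. In 3 members, Rps15a, Rps19bp1 and Rpl12, all 4 controls were above all 4 mutants (2.17% of all genes did so).

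The size of the difference depended on control replicates 1 and 3. Without the library labelled control replicate 1 the median of the members was -0.30, 74 of the 83 were below 0, and 2 members were called (4.85% of all genes were). Without control replicate 3 the median was -0.41, 75 were below 0 and 3 members were called (5.54% of all genes were). With control replicates 1 and 3 both left out, a step chosen after the data were seen, the median was 0.07 against -0.03 for all genes. There, 33 members were below 0, and 1 member, Rps15a, was called, where 4.04% of all genes were. This fit set control replicates 4 and 5 against mutant replicates 2, 3, 4 and 5, whose median deviations were -0.14, -0.06, -0.42 and -0.49. Over genes, control replicates 4 and 5 deviated against mutant replicates 2 and 3 (r from -0.21 to -0.19). The fit cannot tell genotype apart from this split of the libraries. As control replicates 1 and 3 were chosen as the 2 highest controls, their removal had to shrink the difference. Leaving out a low control did the reverse, since 46 members were called without control replicate 4, with 10.7% of all genes, and 17 without control replicate 5, with 12.1%. The fit with the replicate number as a block rests on the 3 pairs of replicates 3, 4 and 5, since control replicate 1 and mutant replicate 2 have no partner, so it also takes these 2 libraries out of the difference. With it the median was -0.34, 75 were below 0 and 5 members were called, of which 3 (Rps15a, Rpl36al and Rpl3l) were among the 7 and 2 (Rps4x and Rps7) were not, and 10.2% of all genes were called. With reads scaled to the total on genes, which moved the median of all genes from 0.06 to 0.23, the median of the members was -0.43 and 3 were called; over all genes that scaling called 8.57%, with 415 lower and 2255 higher calls in place of 988 and 1241.

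**Figure D2:**
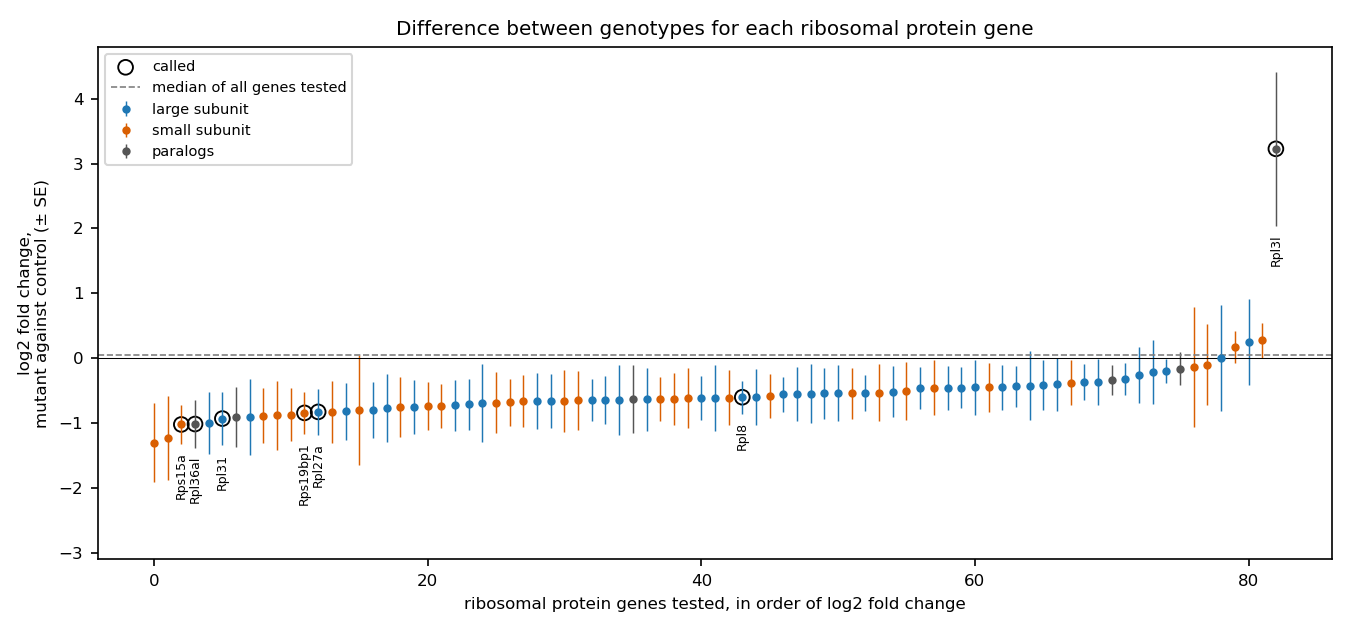
Log2 fold change of each of the 83 members tested, mutant against control, with its standard error from limma (4 against 4 libraries), in order and coloured by subunit; circles mark the 7 called members. Of the 83, 78 lie below 0, and the dashed line is the median of all genes tested, 0.06.

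All 45 genes with large subunit names were tested. Their median log2 fold change was -0.56, 43 were below 0 and 3 (Rpl31, Rpl27a and Rpl8) were called, all lower. Rpl31, a protein at the rim of the peptide exit tunnel, was at 654, 385, 212 and 256 in controls and at 175, 228, 122 and 209 in mutants. Its control replicate 4 lay inside the range of the mutants. Its log2 fold change was -0.93 (SE 0.41, limma p = 0.045, exact permutation p = 0.057), and it was not called without control replicate 1, without control replicate 3 or with the replicate block. The log2 fold change was -0.62 without control replicate 1, -0.88 without control replicate 3 and -0.61 with the block. Rpl27a was at 802, 712, 320 and 383 in controls and at 284, 359, 293 and 234 in mutants, again with control replicate 4 inside the mutant range. Its log2 fold change was -0.83 (SE 0.35, limma p = 0.038, exact permutation p = 0.057), and it was not called with the replicate block (-0.61), without control replicate 1 (-0.62) or without control replicate 3 (-0.67). Rpl8, which lines the peptidyl transferase centre, was at 4214, 3920, 2083 and 2733 in controls and at 2508, 2264, 1690 and 1841 in mutants. Control replicate 4 was below mutant replicates 2 and 3. Its fold of 1.52 was just past the threshold of 1.5 (log2 fold change -0.60, SE 0.26, limma p = 0.038, exact permutation p = 0.086). It was not called without control replicate 1 (-0.46) or control replicate 3 (-0.49), and with the replicate block the log2 fold change was -0.55, under the threshold.

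The P-stalk, which recruits and activates the GTPase factors of translation, is built from Rplp0 and from Rplp1 and Rplp2. Rplp0 was at 11551, 12350, 6710 and 6327 in controls and at 7328, 7818, 5029 and 4801 in mutants. Rplp1 was at 3295, 3418, 1002 and 1145 in controls and at 1415, 1328, 859 and 985 in mutants. Rplp2 was at 1272, 1445, 436 and 424 in controls and at 600, 489, 354 and 357 in mutants. All 3 had control replicates 1 and 3 far above the rest, control replicates 4 and 5 within the mutant range, and no call by limma. By edgeR and DESeq2, Rplp1 and Rplp2 were called lower and Rplp0 was not. The log2 fold changes were -0.53 (SE 0.28) for Rplp0, -0.76 (SE 0.41) for Rplp1 and -0.80 (SE 0.43) for Rplp2. With control replicates 1 and 3 left out they were -0.10, 0.07 and 0.03.

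Rpl5 and Rpl11 form, with the 5S rRNA, the particle that binds Mdm2 when ribosome assembly fails. Rpl11 was at 354, 432, 139 and 141 in controls and at 84, 102, 139 and 156 in mutants, and Rpl5 at 524, 443, 356 and 330 in controls and at 351, 348, 275 and 289 in mutants. In both genes the groups overlapped. The log2 fold change of Rpl11, -0.997 (SE 0.48, limma p = 0.063, exact permutation p = 0.14), was the lowest of the large subunit names, and that of Rpl5 was -0.37 (SE 0.28). Rpl10, among the last proteins to join the large subunit, was at 185, 101, 146 and 75 in controls and at 63, 54, 99 and 101 in mutants, and did not follow the common order of libraries (log2 fold change -0.64, SE 0.49). Rpl12, at the base of the P-stalk, was the large subunit gene whose groups did not overlap. It was at 504, 374, 386 and 350 in controls and at 262, 237, 271 and 320 in mutants (log2 fold change -0.56, SE 0.27, limma p = 0.0645, exact permutation p = 0.029), and its fold of 1.47 was under the threshold. The gene was singled out after its values were seen. Rpl36a, at 8.0 to 53.2 normalized counts, had a log2 fold change of 0.00 (SE 0.82), and the copy Rpl32l, at 17.0 to 61.6, one of 0.25 (SE 0.66).

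All 32 genes with small subunit names were tested too, with a median log2 fold change of -0.65. Of these, 30 were below 0 and 2 (Rps15a and Rps19bp1) were called, both lower. Rps15a, a core protein of the small subunit, was at 476, 598, 477 and 303 in controls and at 231, 184, 220 and 256 in mutants. All 4 controls were above all 4 mutants, and control replicates 4 and 5 did not fall to the mutant level as they did for most members. Its log2 fold change was -1.02 (SE 0.30, limma p = 0.0065, adjusted p = 0.58), and the exact permutation p of 0.029 is the smallest that 70 arrangements allow. It was called in each of the 8 fits that left out 1 library, with the replicate block and without control replicates 1 and 3 (log2 fold change -0.78). Rps19bp1, which encodes a nucleolar protein that binds Rps19, was at 502, 422, 293 and 371 in controls and at 180, 165, 265 and 280 in mutants. Its log2 fold change was -0.84 (SE 0.32, limma p = 0.024, exact permutation p = 0.029), with no overlap, and it was not called without control replicate 1 (-0.72) or with the replicate block (-0.63).

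Rps6, the small subunit protein phosphorylated by the S6 kinases downstream of mTORC1, departed from the other members. It was at 828, 456, 476 and 472 in controls and at 554, 783, 665 and 633 in mutants. Only control replicate 1 was high among the controls, and control replicate 3, high for most members, was the lowest of the 8 libraries. The log2 fold change of 0.28 (SE 0.27, limma p = 0.32, exact permutation p = 0.31) was the highest of the small subunit names and was not called. Without control replicate 1 it was 0.48, and with the replicate block 0.56, under the threshold for the fold and not called. The entry for the copy Rps6-ps4 held 7534, 6980, 3714 and 4455 in controls and 4565, 5554, 3601 and 3113 in mutants, many times the count of Rps6 and in the common order of libraries. Reads of Rps6 may have been split between the 2 entries, so its level is uncertain.

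Other small subunit genes covered the ends of the range. Rps23, at the decoding centre, was at 345, 128, 57.1 and 89.0 in controls and at 53.0, 43.4, 44.1 and 57.6 in mutants. It had the lowest log2 fold change of the members, -1.30 (SE 0.60, limma p = 0.055, exact permutation p = 0.057), and the high mean of controls came mostly from control replicate 1. Without that library the log2 fold change was -0.81, and with the replicate block -0.84. By edgeR and DESeq2, Rps23 was called lower. Rps27a, made as a fusion to ubiquitin, was at 368, 167, 84.1 and 96.5 in controls and at 123, 24.9, 84.1 and 60.5 in mutants, with a log2 fold change of -1.23 (SE 0.65, limma p = 0.083, exact permutation p = 0.14). Rpsa, which is also known as a laminin receptor, was at 7697, 7295, 2671 and 3590 in controls and at 3840, 3966, 2506 and 2136 in mutants. Its control replicates 4 and 5 were below mutant replicates 2 and 3, and the log2 fold change was -0.68 (SE 0.36, limma p = 0.086, exact permutation p = 0.23).

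Rps28, singled out after its values were seen, had other libraries high. It was at 233, 268, 88.1 and 106 in controls and at 85.5, 62.8, 320 and 257 in mutants (log2 fold change -0.10, SE 0.62). Mutant replicate 4 was the highest library, mutant replicates 2 and 3 were the lowest, and the groups overlapped.

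**Figure D3:**
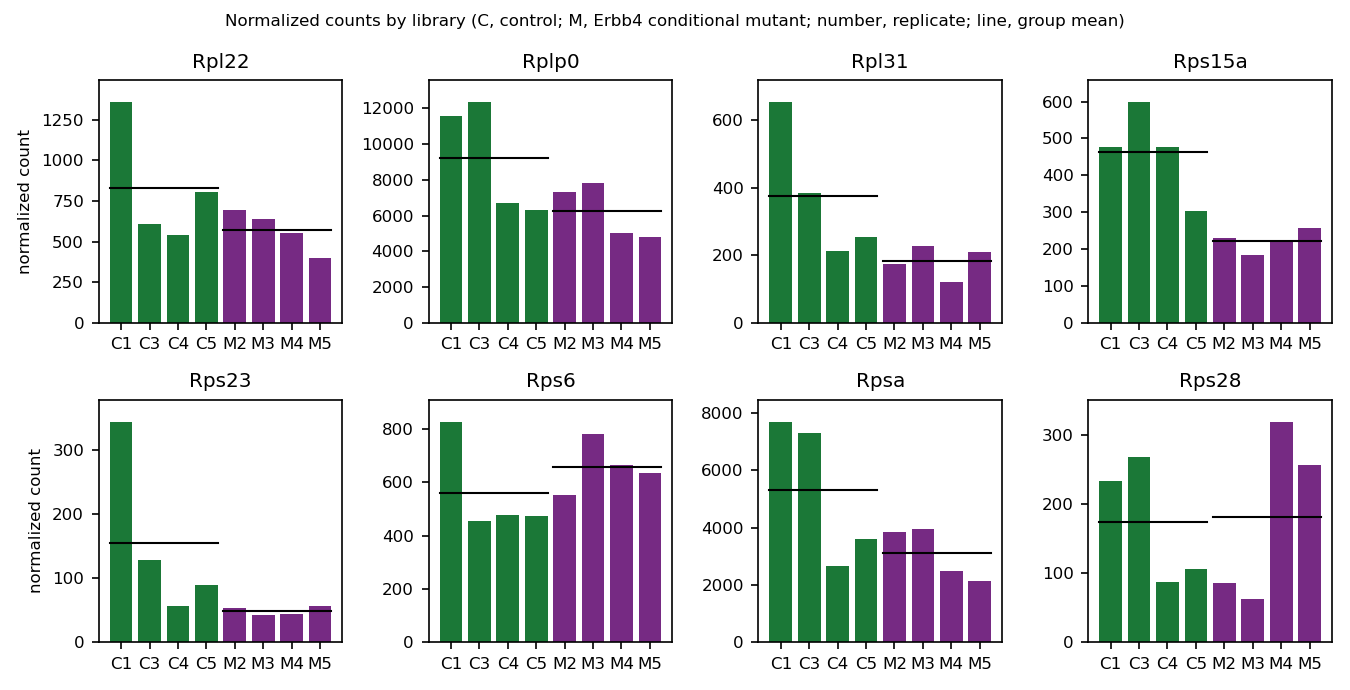
Normalized count of 8 members in each library, controls in green and mutants in purple, with lines at the group means (n = 4 each) and each axis from 0. Rpl22, Rplp0, Rpl31, Rpsa and Rps23 have their highest values in control replicates 1 or 3, Rps15a has all controls above 300 and all mutants below 260, and Rps28 has its highest value in mutant replicate 4.

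The 2 subunits had similar fold changes. The median log2 fold change of the large subunit minus that of the small subunit was 0.10, and 0.10 also without Rps19bp1, Rps23rg1, Rpl37rt and Rpl32l. Leaving out 1 library at a time, it ran from 0.02 to 0.16. Within libraries, the mean log2 level of the large subunit minus that of the small was 0.06, -0.06, 0.05 and 0.12 in controls and 0.14, 0.10, 0.08 and 0.17 in mutants, a difference that does not take gene length into account. These values overlapped between genotypes, and their standard deviation within a genotype was 0.06. Within the pairs of replicates 3, 4 and 5 the mutant was higher each time, by 0.16, 0.03 and 0.05, and the difference of the medians with the replicate block was 0.13. Control replicates 1 and 3 were the 2 highest libraries in 41 of 45 large and 27 of 32 small subunit genes.

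Rpl22 (chr4:152324436-152334082 of mm10) carries the tag and binds RNA at the outer face of the large subunit. It was at 1358, 606, 542 and 806 in controls, 828 ± 371 (SD, n = 4), and at 695, 640, 554 and 400 in mutants, 572 ± 129 (SD, n = 4). Control replicate 1 was the highest library and control replicate 3 was below mutant replicates 2 and 3, so Rpl22 did not follow the order of most members. The log2 fold change was -0.47 (SE 0.32, limma p = 0.18, exact permutation p = 0.29), the 57th lowest of the 83 members, and Rpl22 was not called. It was -0.20 without control replicate 1 and -0.24 without control replicates 1 and 3. The genotypes therefore did not differ detectably in the mRNA of the tagged protein, whose amount was not measured here. Reads from the tagged form, and from the untagged form of cells without Cre, fall on the same entry.

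Among the paralogs, Rpl10l and Rpl39l were at 0 in all 8 libraries and could not be tested. Rpl22l1, the paralog of the tagged protein, was at 893, 1184, 393 and 257 in controls and at 270, 425, 332 and 224 in mutants (log2 fold change -0.91, SE 0.47, limma p = 0.078, exact permutation p = 0.20). Control replicates 4 and 5 lay within the mutant range, and without control replicates 1 and 3 the log2 fold change was -0.06. Rpl36al, the paralog of Rpl36a, was at 1521, 1077, 443 and 684 in controls and at 422, 527, 363 and 366 in mutants. Its control replicate 4 lay inside the mutant range. It was called lower (log2 fold change -1.02, SE 0.37, limma p = 0.018, exact permutation p = 0.057), also with the replicate block (-0.74). It just missed the threshold for p without control replicate 1 (-0.73) and without control replicate 3 (-0.90). Rpl7l1 was at 2902, 1764, 1549 and 1668 in controls and at 1357, 1362, 1669 and 1697 in mutants. Its log2 fold change was -0.33 (SE 0.23), that of Rps27l was -0.64 (SE 0.53) and that of Rps4l -0.17 (SE 0.25), none of them called. Without control replicate 1 they were -0.13, -0.24 and -0.04, and with the replicate block -0.08, -0.14 and -0.04.

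Rpl3l, the paralog of Rpl3 known from heart and skeletal muscle, had no read in any control and 10, 21, 12 and 2 reads in mutant replicates 2, 3, 4 and 5. Against a floor of 3 reads in each control the mutant mean of 10.6 normalized counts was at least 3.04-fold higher. It passed the filter on low values through the mutants alone, so no p value is given, and it fell under the filter without mutant replicate 3 or 4.

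Most of these genes have many processed copies in the mouse genome, which bears on how their reads were counted. The coding sequence of 81 members was aligned to all GENCODE M21 transcripts, and 74 of the 81 had a transcript of another gene with at least 95% identity over at least 90% of its length. The median log2 fold change was -0.62 for the 6 tested members with 0 such copies, -0.61 for the 32 with 1 to 4 and -0.63 for the 41 with 5 or more, so these medians were alike. The level did vary. Per kilobase of the principal transcript, the control mean of the 73 canonical members had a median of 768 normalized counts, from 54.5 for Rpl36a to 8548 for Rpl4. Rpl4 was the highest, Rplp0 was at 6800, and the lowest 3 were Rpl36a, Rps12 (70.9) and Rps15a (89.5). The low rank of Rps15a rests on a principal transcript of 5179 bases. Its control mean was 464, where Rpl27a, at 554 over 1158 bases, had 479 per kilobase. The median per kilobase was 795 for the large and 658 for the small subunit. It was 2721 for the 3 canonical members with 0 copies, 928 for the 29 with 1 to 4 and 636 for the 41 with 5 or more. Counts were made on constitutive regions, whose length may differ from the transcript used here, and the level of a member with copies is uncertain. Of 22 entries named or described as copies in the table, Rps6-ps4, Rpl14-ps1 and Rpl17-ps10 had the highest means, and Rpl17-ps10 was called lower (log2 fold change -0.90, limma p = 0.040, exact permutation p = 0.11), but not without control replicate 1 or 3. Rpl30, Rpl34, Rpl26 and Rps27 shared an entry each with a copy and were outside the naming rule; these had log2 fold changes of -0.16, -0.23, -0.59 and -0.24, none called.

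**Figure D4:**
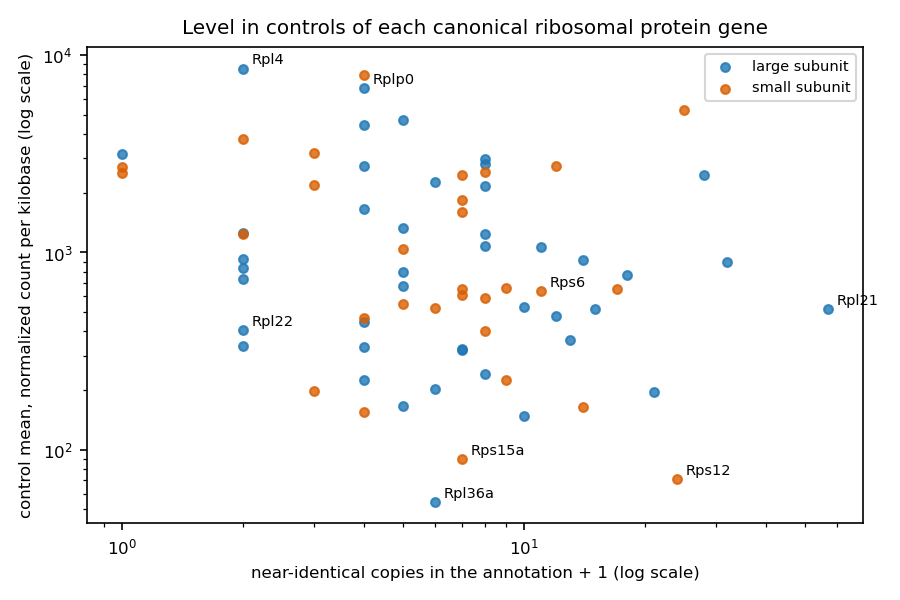
Control mean of each of the 73 canonical members in normalized counts per kilobase of its principal transcript against its number of near-identical copies plus 1, both on log scales, coloured by subunit. Levels run from 54.5 (Rpl36a) to 8548 (Rpl4) per kilobase, and the 3 members with 0 copies lie between 2530 and 3174.

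Members with and without the start-site runs described above had similar fold changes. The median log2 fold change was -0.54 for the 27 members with a run of at least 8 pyrimidines. It was -0.62 for the 36 tested members whose window had none. A window without a run does not speak to the TOP tract, so whether members with a TOP tract were lower was not tested. The other TOP mRNAs, for translation factors and related proteins, had a median of -0.42 over 18 genes. Of these, 2 were called lower, where 3.17% of all genes were. Eef1b2, a subunit of the exchange factor of elongation factor 1, was at 3419, 3414, 1736 and 1979 in controls and at 1453, 1341, 1232 and 1234 in mutants (log2 fold change -0.94, limma p = 0.0037, exact permutation p = 0.029), with no overlap. Eif3f, a subunit of initiation factor 3, had a log2 fold change of -0.67 (limma p = 0.036, exact permutation p = 0.11). Without control replicate 1 or control replicate 3, Eef1b2 was called and Eif3f was not. Eef2, the elongation factor and the most abundant of the list, was at 55685 to 81595 normalized counts, with a log2 fold change of -0.18 (SE 0.23).

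Lists of other abundant complexes were also highest in control replicates 1 and 3. Over all genes tested, limma called 3.17% lower and 3.98% higher. For the mitochondrial ribosomal proteins the median log2 fold change was -0.53, and 13 of 75 were called lower and 0 higher, led by Mrpl54, Mrpl12, Mrpl45 and Mrps35 at -1.23, -0.99, -0.95 and -0.83. For proteasome subunits it was -0.45, with 8 of 38 lower and 0 higher, led by Psma2, Psmb4, Psmb6 and Psmb1 at -0.79 to -0.74. For subunits of oxidative phosphorylation it was -0.78, with 16 of 79 lower and 0 higher, led by Cox7c at -1.28 and Ndufb5 at -1.03. Control replicates 1 and 3 were the 2 highest libraries for 96.0% of the mitochondrial ribosomal proteins, 78.9% of the proteasome subunits and 94.9% of the respiratory subunits. Without control replicates 1 and 3 the medians of the 3 lists were -0.06, -0.04 and -0.03. Whether the lists differed from the cytosolic members among the other libraries was not tested. By median deviation the cytosolic members were lowest in control replicate 4, at -0.52, with mutant replicate 5 at -0.49. Their summed counts and the small subunit median (-0.61) were lowest in mutant replicate 5. The median deviation from the own mean in control replicate 4 was -0.17 for mitochondrial ribosomal proteins, -0.08 for the proteasome and -0.30 for oxidative phosphorylation, and all 3 lists were lowest in mutant replicate 5, at -0.39, -0.45 and -0.70. Without control replicate 1, 6 mitochondrial ribosomal proteins, 0 proteasome subunits and 3 respiratory subunits were called by limma, where 4.85% of all genes were. With reads scaled to the total on genes the 3 counts were 4, 0 and 7 (8.57% of all genes). With DESeq2 they were 23, 11 and 60 (9.09% of all genes). With the replicate block 9 mitochondrial ribosomal proteins, 9 proteasome subunits and 35 respiratory subunits were called, where 10.2% of all genes were. Mrps35 (-0.67), Psma2 (-0.58) and Cox7c (-0.81) were not called with the block. Genes of ribosome biogenesis had a median of -0.18 over 38 genes, with Nop58 called lower (-0.73) and Heatr1 higher (0.98). Without control replicate 1 this median was -0.06, and with the replicate block -0.005. Nop58 was not called without control replicate 1 or with the replicate block, where it fell short of the threshold for the fold, and Heatr1 was called in both.

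**Figure D5:**
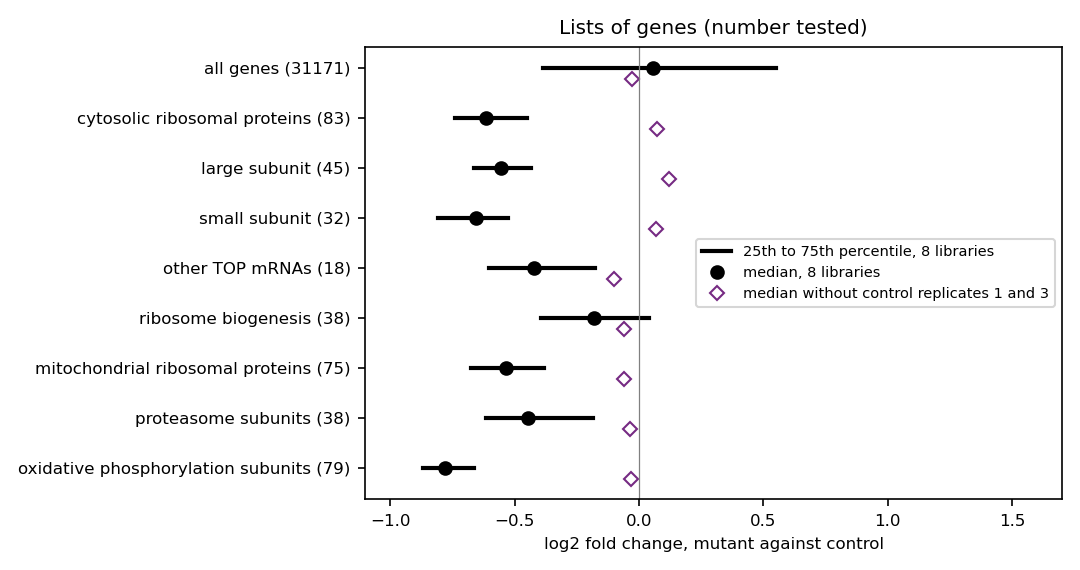
Median (black point) and 25th to 75th percentile (bar) of the log2 fold change, mutant against control, for each list of genes, with the number tested in brackets; open diamonds give the median without control replicates 1 and 3. The median of the cytosolic ribosomal proteins moves from -0.61 to 0.07.

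Markers of cell types and signs of RNA content also differed between the libraries, and their part in the level of ribosomal protein mRNAs was not tested. In such pulldowns fewer tagged cells or synapses and less of an mRNA in each cannot be told apart. Over all genes tested, limma called 3.17% lower and 3.98% higher. In either direction it called 4.85% without control replicate 1, 4.04% without control replicates 1 and 3, and 10.2% with the replicate block. Of 14 markers of interneurons of the medial ganglionic eminence, 4 (Pvalb, Gad1, Kcnc1 and Gad2) were called lower and 0 were at 0. Their median log2 fold change was -0.97. With the replicate block 12 of the 14 were called lower, Sst among them, with a median of -1.17. Without control replicate 1 there were 2 calls, and without control replicates 1 and 3 there were 0 by limma, with a median of -0.46. Their summed normalized counts, with Sst the most abundant, were 286636, 554444, 190033 and 82873 in controls and 220006, 218035, 61914 and 33133 in mutants. Control replicate 3 and not control replicate 1 was highest here, and mutant replicates 4 and 5 were lowest. Of 10 oligodendrocyte markers 3 (Mog, Mag and Opalin) were called lower and 0 were at 0. By limma 0 of the 10 were called without control replicate 1 and 0 with the replicate block. Their sum, with Mbp the most abundant, was 673772, 362807, 229955 and 324754 in controls and 232813, 202878, 253660 and 287269 in mutants, highest in control replicates 1 and 3 like the ribosomal protein mRNAs. Markers of endothelial and mural cells moved the other way, with 4 of 10 (Pdgfrb, Tek, Kdr and Flt1) called higher and a median of 0.53. Only Tek was called without control replicate 1, and only Tek with the replicate block. Pdgfrb, Kdr and Flt1 fell short of the threshold for the fold alone. Their log2 fold changes were 0.56, 0.45 and 0.52 without control replicate 1, and 0.54, 0.48 and 0.58 with the block. The median of the list was 0.38 and 0.43 in these 2 settings. Their sum, with Cldn5 the most abundant, was 178303, 281991, 216737 and 189272 in controls and 285403, 267019, 278851 and 268565 in mutants.

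The other marker lists had few calls, and in none of the lists was a marker at 0 throughout. Of 8 markers of interneurons of the caudal ganglionic eminence 0 were called by limma (0 at an unadjusted p under 0.05, and 1 called by edgeR, 2 by DESeq2 and 1 with the replicate block), with a median of -0.60 and Lamp5 the most abundant. Without control replicate 1 this median was -0.37, and with the replicate block -0.36. The sum of these 8 markers was 21415, 13815, 9583 and 9897 in controls and 8113, 8826, 8822 and 9028 in mutants. Of 10 markers of excitatory neurons, Neurod6 was called lower, though not with the replicate block, with Slc17a7 the most abundant; the sum was 115385, 149197, 128676 and 153379 in controls and 111241, 125482, 120436 and 137598 in mutants. Astrocyte markers (9, led by Aldoc) and microglial markers (10, led by Csf1r) had 0 calls by limma, 0 at an unadjusted p under 0.05, and medians of -0.11 and -0.44. Without control replicate 1 these medians were -0.02 and -0.23, and with the replicate block -0.02 and -0.21. EdgeR and DESeq2 called 0 and 0 of the astrocyte markers and 1 and 2 of the microglial markers. The astrocyte sum was 239422, 189067, 135604 and 172552 in controls and 151589, 161559, 141468 and 154658 in mutants. The microglial sum was 55837, 47342, 27343 and 32294 in controls and 30570, 33704, 28340 and 30576 in mutants. Of 3 red blood cell genes Alas2 was called higher, and the sum, with Hba-a1 the most abundant, was 10592, 10706, 3651 and 4658 in controls and 7270, 7317, 6922 and 7043 in mutants. The precursor of ribosomal RNA, Rn45s, took 0.199% and 0.644% of the reads in control replicates 1 and 3, 1.69% and 2.38% in control replicates 4 and 5 and 0.989% to 1.60% in mutants, so it was lowest where the ribosomal protein mRNAs were highest. Mitochondrial transcripts took 5.96%, 4.37%, 2.75% and 6.21% of the reads in controls and 3.59%, 4.17%, 2.06% and 2.26% in mutants.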

How the data were processed

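The deposited signal is a normalized count per gene. By the study's methods, the authors aligned reads with STAR 2.4.0 to mm10, counted them over the constitutive parts of Fast DB genes and divided by 1 DESeq2 size factor per library. Dividing each library by its smallest value above 0 gave whole reads, within 0.01, for 100% of the values. Genes whose mean reached 10 in either genotype entered limma 3.58.1 (eBayes with trend) in R 4.3.3 on log2(normalized count + 1), so fold changes of low genes are understated, with Benjamini-Hochberg adjustment. The test was tried on simulated counts. Alternatives used edgeR 4.0.16 and DESeq2 1.42.0 on the recovered reads. Copies were sought with BLAST 2.17.0. Named genes were Erbb4, Rpl22 and members chosen by role, call, rank, level or as paralogs, and in other lists the called (up to 4 a direction) and the most abundant. Members and lists were chosen with earlier results of these data known. The replicate numbers 3, 4 and 5, which the genotypes share, were taken to pair libraries, though no label states a pairing. Same-numbered libraries deviated together from their group means (r = 0.28, 0.24 and 0.26 over genes). Control replicates 3, 4 and 5 correlated about as well with mutant replicates 2, 5 and 4 (0.28, 0.23 and 0.23). Control replicate 3 went against mutant replicates 4 and 5 (-0.32 and -0.34). Control replicates 4 and 5 went against mutant replicates 2 and 3 (-0.21 to -0.19). The correlations thus do not single out the same-numbered pairs. The study's supplement speaks of 2 RNA sequencing batches, and the labels do not assign libraries to them. No block for sequencing batch was therefore fitted.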

Additional observations from a re-analysis of the deposited data

Results flagged for a closer look

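In 190 groups of 4 libraries, taken over named genes, summed lists and library values, 4 held a library far from the other 3 of its genotype, where chance gives about 1 in 20. Rps6 was at 828 normalized counts in control replicate 1, against 456 to 476 in the other controls. Rpl7l1 was at 2902 in the same library, against 1549 to 1764. Nop58 was at 898 in mutant replicate 5, below the other mutants at 1051 to 1077. Hba-a1, a globin gene, was at 3116 in mutant replicate 4, below the other mutants at 3635 to 3699.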

How the results depend on the processing

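Total reads on genes as the scale gave 3 calls among the cytosolic ribosomal protein genes, 2 of them lower, of 2670 over all genes, and turned the sign for Rps4l (0.016), Eef2 (0.00776), Slc17a7 (0.039), Csf1r (0.070), Cldn5 (0.050) and Hba-a1 (0.11). Quantile normalization turned Rpl36a (-0.0338), Eef2 (0.11), Slc17a7 (0.16) and Cldn5 (0.16), and a pseudocount of 10 turned Rpl36a (-0.0701). The cause was not tested.

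Library weights gave 4 member calls, 3 lower, and 3630 calls among all genes, with Hba-a1 at 0.30. The edgeR test gave 18 member calls, 17 lower, of 2279 over all genes, with Rpl36a at -0.31, and DESeq2 gave 24, 23 lower, of 2834, with Rpl36a at -0.33. The 73 canonical members alone had 4 calls (5.48%, against 7.15% of all genes), and 1 without control replicate 1.

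With the replicate block, which rests on 3 pairs and leaves control replicate 1 and mutant replicate 2 without weight in the difference, there were 5 member calls, 4 lower, the median log2 fold change of the members was -0.34 and that of Rpl22 -0.30, the large minus small subunit difference was 0.13, and 3164 genes were called. Hba-a1 turned to 0.14. Beyond the changes given beside the results, the block changed no call of a gene named here.

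With control replicates 1 and 3 left out together, 1 member was called, lower, of 1263 genes, and the median of the members turned to 0.071. Rplp1 (0.068), Rplp2 (0.029), Rps27l (0.33), Rps4l (0.19), Csf1r (0.041), Cldn5 (0.26) and Hba-a1 (0.65) turned too. These settings with libraries or members left out together were added after the data were seen, as was the limit of a mean of at least 10 in both genotypes (6 member calls of 1895).

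Leaving out 1 library at a time, member calls ran from 2 to 46 and lower calls from 1 to 45. The median of the members ran from -0.87 to -0.30, large minus small from 0.017 to 0.16, Rpl22 from -0.64 to -0.20 and calls among all genes from 1194 to 3767. The sign turned within the range for Rpl36a (-0.41 to 0.45), Rpl32l (-0.090 to 0.51), Cldn5 (-0.35 to 0.13) and Hba-a1 (-0.37 to 0.18). Of 1464 values of named genes over all settings, 1170 stayed the same, 36 were stronger, 227 weaker and 31 reversed.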
